A study of Homo sapiens with 4 samples.

Results

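The genes described here encode the chaperones of the cytosol and their partners: the HSP70, HSP110 and HSP90 machines, their J-domain, BAG and other co-chaperones, the small heat shock proteins, the heat shock transcription factors HSF1 and HSF2, the subunits of the CCT chaperonin and those of prefoldin. The mitochondrial chaperonin pair HSPD1 and HSPE1 and the collagen chaperone SERPINH1, which work outside the cytosol, were counted with them. The members were 53 genes taken by symbol, and each matched exactly 1 of the 62893 rows of the count table. They were measured by RNA-seq of poly(A) RNA in T24, an established human bladder carcinoma line, treated with control siRNA (siControl, 2 libraries) or with siRNA against NSUN2 (siNSUN2, 2 libraries). NSUN2 encodes a methyltransferase that places 5-methylcytosine on tRNAs and other RNAs. The comparison asks which of these transcripts differed in abundance after the knockdown. The number of siRNAs and the time after transfection were not analysed here.

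HSP70 proteins bind exposed hydrophobic stretches of unfolded proteins in cycles of ATP hydrolysis. J-domain proteins start these cycles and BAG and HSP110 proteins end them by exchanging the nucleotide. HSP90 receives partly folded clients such as kinases and steroid receptors from HSP70, with co-chaperones that set the pace of its own ATP cycle. CCT is a ring-shaped chamber in which actin and tubulin fold, and prefoldin brings these chains to it. HSF1 is the factor that raises many of these genes when unfolded proteins accumulate.

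The shallowest library held 33633249 counts and the deepest 215936965. Levels are given as CPM, counts scaled by library size, and 1 CPM stands for 33.6 to 216 counts. NSUN2 itself (ENSG00000037474) stood at 281 and 284 CPM in the control libraries and at 29.6 and 30.1 CPM in the knockdown libraries, a log2 fold change of −3.24. The 11 epithelial and urothelial markers summed to between 1154 and 1253 CPM in the 4 libraries, nearly all from KRT7, KRT8 and KRT18, while KRT19, EPCAM, CDH1 and UPK3A were below 0.1 CPM in every library. Markers of blood and immune cells (7 genes) summed to 0.946 and 1.12 CPM in the controls and to 1.39 and 4.94 CPM after knockdown. For endothelial markers (3 genes) the sums were 0.638 and 0.389 CPM against 2.35 and 10.8 CPM, and for fibroblast and muscle markers (4 genes) 0.875 and 1.83 CPM against 3.001 and 3.51 CPM. VIM, CD44, FN1 and ZEB1, mesenchymal genes that invasive lines express, summed to 2690 and 2667 CPM in the controls and to 3495 and 3530 CPM after knockdown. They did not move together: VIM and FN1 were higher after knockdown (log2 fold change 0.77 and 0.60) and CD44 was lower (−0.15). ZEB1 was at 0.13 (adjusted p = 0.0614, edgeR's quasi-likelihood test). The part of these differences in the results was not tested. PECAM1 was at 0 throughout. In bulk RNA, fewer cells with a transcript and less of it per cell cannot be told apart. The labels do not say that replicates came from separate cultures. The p-values therefore speak only of the spread between libraries, and that spread may be technical.

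Most chaperone transcripts were lower after NSUN2 siRNA, with HSP90AA1, HSPH1, PTGES3 and DNAJB6 near 0.5-fold of the control level, and HSPB1, DNAJB2 and SERPINH1 were higher by about 2-fold. CDC37, BAG3, PFDN2, DNAJB4 and HSF1 also rose, by 1.16- to 1.53-fold, and HSPB8 rose from near the limit of detection. Of the 53 members, 52 passed the filter on low counts. Of these 52, 32 fell, 9 rose and 11 did not pass the test (adjusted p under 0.05, edgeR's quasi-likelihood test adjusted over all 16889 genes tested). Over all genes tested, 25.5% fell and 27.1% rose, 52.6% in all, against 61.5% and 17.3% of these members. These shares were not matched for transcript level, and the median level of the members was 7.02 in average log2 CPM. The median log2 fold change of the members was −0.26, beside 0.026 for all genes tested. With GC and length trends removed from each library (the correction), 26 members fell and 7 rose, the median was −0.14, and 23.6% and 23.2% of all genes fell and rose. The correction moved the log2 fold changes of all genes by a median of 0.045. Both knockdown libraries lay below both controls for 33 members and above them for 14, where 36.0% and 38.6% of all genes tested did so.

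The members together summed to 22697 and 22657 CPM in the siControl libraries and to 16611 and 15898 CPM in the siNSUN2 libraries. The groups did not overlap, and HSP90AA1, the most abundant member by CPM, made up the largest share of the difference. DNAJA4, a J-domain gene, did not pass the filter, with 0 and 4 counts in the controls and 0 and 1 counts after knockdown. A count of 0 allows up to 0.0709 CPM in siControl replicate 1 and 0.0324 CPM in siNSUN2 replicate 1, for counting error alone.

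**Figure D1:**
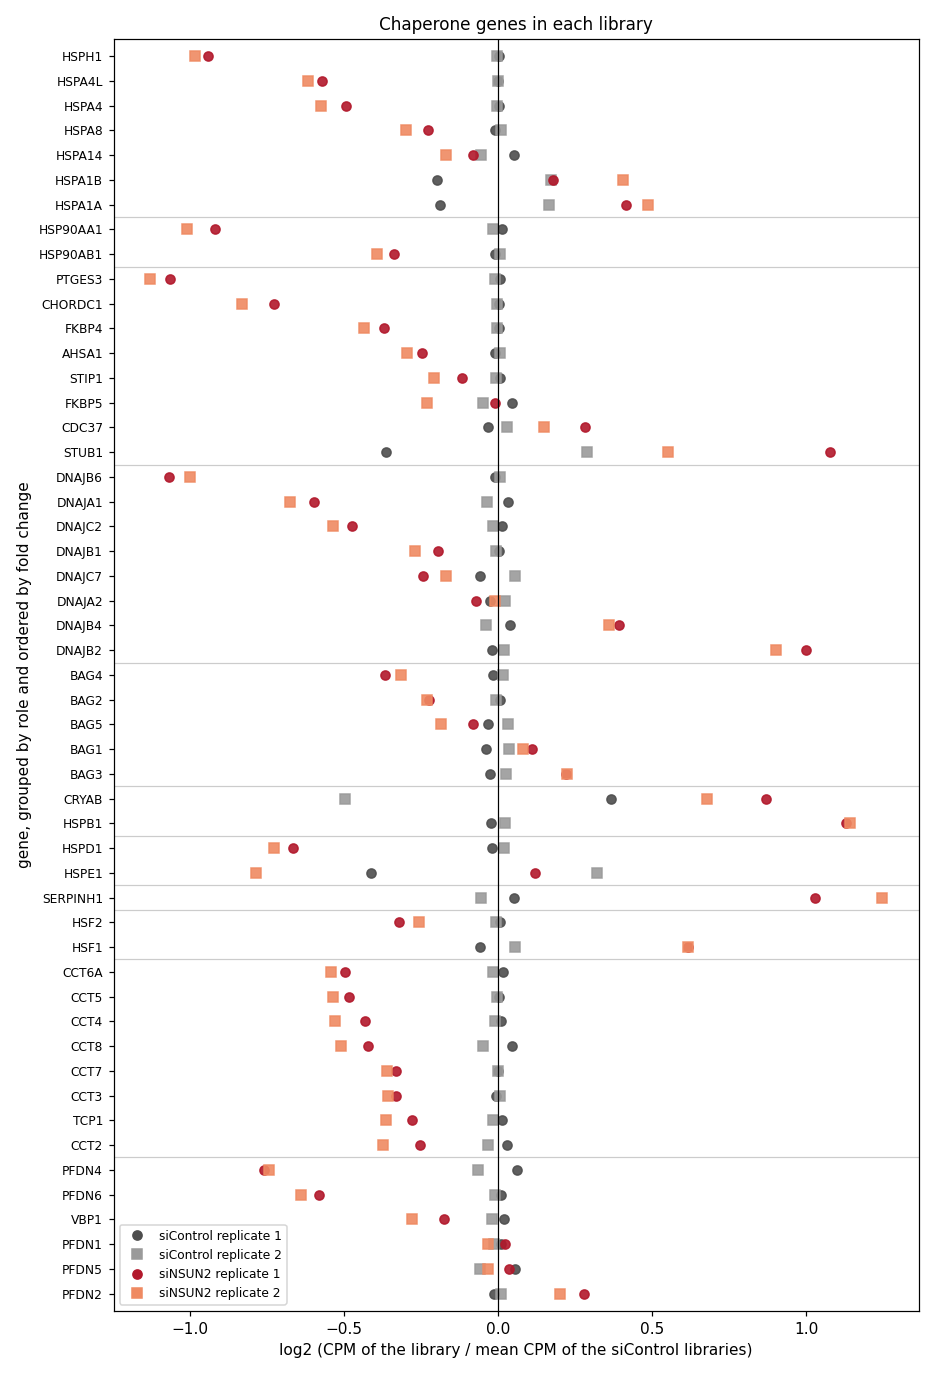
Level of each chaperone gene in each library, as log2 of its CPM over the mean CPM of the siControl libraries, with genes grouped by role and ordered by fold change. Points are single libraries, for the 51 members with counts in all 4 libraries. The control points sit close to 0 except for HSPE1, STUB1, CRYAB, HSPA1A and HSPA1B, and the siNSUN2 points of HSPH1, HSP90AA1, PTGES3 and DNAJB6 lie near −1.

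Of the 7 HSP70 and HSP110 genes, 4 fell, 0 rose and 3 did not pass the test. HSPH1 (ENSG00000120694), the HSP110 that exchanges the nucleotide of HSP70, stood at 486 and 483 CPM in siControl and at 253 and 245 CPM in siNSUN2. Both knockdown libraries were far below both controls, and the log2 ratio was −0.96 (SE 0.039, adjusted p = 1.40e-07). Its relatives moved less. HSPA4 was at 548.5 and 546 CPM in the controls and at 389 and 368 CPM after knockdown (log2 fold change −0.53, SE 0.042, adjusted p = 5.71e-06). HSPA4L was at 88.6 CPM in both controls and at 59.6 and 57.8 CPM after knockdown (−0.59, SE 0.041, adjusted p = 2.79e-06). The groups were apart in both genes, and all 3 HSP110-type genes stayed called with GC and length taken off, at −0.76, −0.36 and −0.45.

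HSPA8 (ENSG00000109971), the constitutive HSP70 of the cytosol, was at 2289 and 2318 CPM in siControl and at 1968 and 1873 CPM in siNSUN2. The groups did not overlap and the fall was small, at −0.26 on the log2 scale (SE 0.043, adjusted p = 6.91e-04) and −0.14 with the correction. The stress-inducible HSP70 genes had higher values after knockdown but did not pass. HSPA1A was at 62.2 and 79.7 CPM in the controls and at 94.7 and 99.4 CPM after knockdown (log2 fold change 0.45, SE 0.16, adjusted p = 0.119), and HSPA1B was at 38.0 and 49.1 CPM against 49.3 and 57.7 CPM (0.29, SE 0.19, adjusted p = 0.349). Neither gene's groups overlapped, but the control libraries differed from each other by more than those of HSPA8. HSPA1A and HSPA1B are near-identical copies, so reads can be split between them or lost and both values are uncertain. The calls depended on the settings: HSPA1A and HSPA1B were both called as rises with no filter on low counts. Without siControl replicate 1 or replicate 2, the log2 fold change of HSPA1A was 0.22 or 0.62. Those fits keep 1 control library, so the spread between the controls is absent from them and their calls are not read. The values of HSPA1A and HSPA1B with the correction were 0.078 and −0.031. HSPA14, a ribosome-associated HSP70, had a log2 fold change of −0.12 (adjusted p = 0.0955), and of −0.19 without siControl replicate 2. It shares 17.4% of its exon positions with another gene of that name on the same strand.

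Both HSP90 genes of the cytosol fell, and by unequal amounts. HSP90AA1 (ENSG00000080824), the inducible form, was at 4148 and 4066 CPM in siControl and at 2175 and 2042 CPM in siNSUN2. On the log2 scale this was −0.96 (SE 0.047, adjusted p = 3.76e-07), and −0.77 with GC and length taken off. HSP90AB1 (ENSG00000096384), the constitutive form, was at 3227 and 3265 CPM against 2568 and 2471 CPM (−0.37, SE 0.043, adjusted p = 7.53e-05), and −0.28 with the correction. The groups were apart for both genes. Scaled by transcript length, the ratio of HSP90AA1 to HSP90AB1 was 1.02 and 0.986 in the control libraries and 0.670 and 0.654 in the knockdown libraries. The pair was thus near equal in length-scaled level in both controls, and HSP90AB1 was the higher of the pair in both knockdown libraries.

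Of the 8 HSP90 co-chaperones, 5 fell, 1 rose and 2 did not pass. PTGES3 (ENSG00000110958), which encodes p23, the partner that holds HSP90 in its closed, ATP-bound form, was at 669 and 662 CPM in siControl and at 318 and 305 CPM in siNSUN2. This was the largest fall of any member that was tested (log2 fold change −1.095, SE 0.040, adjusted p = 9.62e-08), and it was −0.84 with the correction. CHORDC1, a CHORD-domain partner of HSP90, was at 166 and 165 CPM against 99.8 and 92.9 CPM (−0.78, SE 0.046, adjusted p = 1.12e-06; −0.52 with the correction). FKBP4, the immunophilin that assists steroid receptors, was at 252 and 251 CPM against 195 and 187 CPM (−0.40, SE 0.040, adjusted p = 2.87e-05).

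The remaining co-chaperones of HSP90 moved less. AHSA1, which activates the ATPase of HSP90, and STIP1, which links HSP70 to HSP90, fell by 0.27 and 0.16 on the log2 scale. With no filter on low counts the call of STIP1 was lost (adjusted p = 0.144). CDC37, which brings kinases to HSP90, was at 193 and 201 CPM in siControl and at 240 and 219 CPM in siNSUN2, and it was called as a rise (log2 fold change 0.22, adjusted p = 0.00676). That direction turned with GC and length taken off (−0.14, adjusted p = 0.0154), and the call was lost without siControl replicate 1. FKBP5, the immunophilin that damps steroid receptors, lay between 9.43 and 11.4 CPM in all 4 libraries and did not pass. STUB1, the ubiquitin ligase that marks chaperone clients for degradation, was at 14.5 and 22.8 CPM in the controls and at 39.3 and 27.3 CPM after knockdown (log2 fold change 0.83, SE 0.39, adjusted p = 0.237). Its groups did not overlap, but its replicates differed widely, and it was called as a rise with limma-voom (adjusted p = 0.0314) and with non-robust edgeR (0.0398). In GENCODE release 29, 42.4% of its exon positions are shared with JMJD8 on the other strand, and the part of this in the spread was not tested.

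Among the 9 J-domain genes, 8 were tested, of which 5 fell, 2 rose and 1 did not pass. DNAJB6 (ENSG00000105993), which suppresses the aggregation of polyglutamine proteins, was at 563 and 569 CPM in siControl and at 270 and 283 CPM in siNSUN2 (log2 fold change −1.03, SE 0.041, adjusted p = 1.29e-07; −0.77 with the correction). DNAJA1, a general partner of HSP70, was at 714 and 682 CPM against 461 and 438 CPM (−0.63, SE 0.044, adjusted p = 2.80e-06; −0.40 with the correction). DNAJC2, which acts at the ribosome, was at 97.1 and 95.1 CPM against 69.3 and 66.3 CPM (−0.50, SE 0.043, adjusted p = 1.01e-05; −0.27 with the correction). The groups were apart in all 3 genes. DNAJB1, the HSF1-inducible partner of HSP70, fell by 0.23 on the log2 scale, and by 0.30 with the correction. DNAJC7, which binds both HSP70 and HSP90, fell by 0.21, a call lost without siNSUN2 replicate 1 and with the correction.

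The J-domain genes that rose were DNAJB2 and DNAJB4. DNAJB2 (ENSG00000135924), best known in neurons, was at 31.9 and 32.7 CPM in siControl and at 64.6 and 60.3 CPM in siNSUN2 (log2 fold change 0.95, SE 0.050, adjusted p = 5.58e-07), and 0.47 with GC and length taken off. DNAJB4 was at 33.0 and 31.3 CPM against 42.2 and 41.2 CPM (0.38, SE 0.051, adjusted p = 1.92e-04). Its transcript had the lowest GC content of the tested members, 33.1%, and its value went up with the correction, to 0.65. DNAJA2, the close relative of DNAJA1, stood between 225 and 240 CPM in all 4 libraries (−0.04, adjusted p = 0.467), and was called as a rise of 0.19 with the correction. Without siControl replicate 1 its log2 fold change was −0.13.

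The BAG genes, whose proteins release clients from HSP70, changed little. BAG4 was at 33.1 and 33.8 CPM in siControl and at 26.0 and 26.9 CPM in siNSUN2 (log2 fold change −0.34, SE 0.054, adjusted p = 5.03e-04). BAG2 fell by 0.23 on the log2 scale, from 84.7 and 83.9 CPM to 72.2 and 71.9 CPM. It shares 44.2% of its exon positions with RAB23 and ZNF451-AS1 on the other strand. BAG5, at −0.13, passed narrowly (adjusted p = 0.0497). BAG3, the stress-inducible member that works in autophagy, was at 60.6 and 62.8 CPM against 72.0 CPM in both knockdown libraries (0.22, SE 0.042, adjusted p = 0.00165). BAG1 had a log2 fold change of 0.096 (adjusted p = 0.128). The groups of these 5 genes did not overlap, yet with GC and length taken off 0 of the 5 were called, and their values lay between −0.13 and 0.046.

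The small heat shock proteins, which hold unfolded chains without using ATP, had higher values in both knockdown libraries. HSPB1 (ENSG00000106211) was at 81.4 and 84.1 CPM in siControl and at 181 and 183 CPM in siNSUN2, 2.20-fold higher (log2 fold change 1.13, SE 0.041, adjusted p = 8.64e-08). Replicates lay close together, and the value was 0.56 with the correction (adjusted p = 2.17e-05). HSPB8, the partner of BAG3, was near the limit of detection, with 0 and 6 counts in the controls and 17 and 6 counts after knockdown. It was called as a rise (adjusted p = 0.0312), but the call was lost in DESeq2 (adjusted p = 0.0771), without siControl replicate 1 (0.119) and without siNSUN2 replicate 2 (0.101). Without either of the other libraries, or with all libraries thinned to the shallowest, it did not pass the filter, and no fold is given. CRYAB, alpha-B crystallin, lay at 0.377 and 0.207 CPM against 0.534 and 0.467 CPM and did not pass (adjusted p = 0.171).

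HSPD1 (ENSG00000144381), the mitochondrial HSP60, was at 1416 and 1454 CPM in siControl and at 905 and 868 CPM in siNSUN2. Both knockdown libraries were below both controls (log2 fold change −0.70, SE 0.042, adjusted p = 1.17e-06; −0.51 with the correction). Its co-chaperonin HSPE1 (HSP10) gave no such picture, at 41.9 and 69.5 CPM in the controls and at 60.5 and 32.3 CPM after knockdown. The highest library was a control and the lowest a knockdown library, the replicates of each group differed by more than the groups did, and the test did not pass (−0.26, SE 0.55, adjusted p = 0.766). HSPE1 shares 9.71% of its exon positions with the read-through gene HSPE1-MOB4 and 14.2% with HSPD1 on the other strand. The table holds 26 rows named as HSPE1 pseudogenes, with 1.14% to 4.41% of the combined counts by library, and their part in the spread was not tested. SERPINH1, the collagen chaperone HSP47 of the endoplasmic reticulum, was scarce, at 2.54 and 2.36 CPM in siControl and at 4.998 and 5.81 CPM in siNSUN2 (1.14, SE 0.16, adjusted p = 2.19e-04; 0.80 with the correction).

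The transcription factor genes diverged. HSF1 was at 75.7 and 82.0 CPM in siControl and at 121 CPM in both siNSUN2 libraries (log2 fold change 0.62, SE 0.048, adjusted p = 5.53e-06). HSF2, which can pair with HSF1 on DNA, was at 35.4 and 35.1 CPM against 28.2 and 29.5 CPM (−0.29, SE 0.053, adjusted p = 0.00128). The groups were apart in both genes. Both calls were lost with GC and length taken off, where HSF1 stood at 0.047 (adjusted p = 0.379) and HSF2 at −0.046 (adjusted p = 0.513). The HSF1 transcript has a GC content of 63.9% and that of HSF2 40.9%.

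HSF1 binds heat shock elements, inverted repeats of the unit GAA. To show which members carry such repeats at their starts, promoters from RefSeq (GRCh38.p14, 250 bases before to 50 after each start site) were searched for 3 alternating units, GAANNTTC followed by NNGAA or TTCNNGAA followed by NNTTC (13 bases), which together cover both strands. Promoters were at hand for 45 members, and not for HSPA14, STUB1, FKBP4, BAG4, CRYAB, HSF1, CCT6A and PFDN2. A gene can have several start sites. The repeat was found in 8 of 68 promoters of members (11.8%) and in 0.490% of all 35116 promoters. All matches in members are shown. They lie in the 4 members with the highest CPM, HSP90AA1, HSP90AB1, HSPA8 and HSPD1, in CHORDC1, DNAJA1 and DNAJB6, which fell, and in SERPINH1, which rose. Each line runs 5′ to 3′ on the strand of the gene, with the matching bases in capitals.
HSPA8, chr11:123062339-123062381, minus strand: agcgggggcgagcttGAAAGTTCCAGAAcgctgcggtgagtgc
HSPA8, chr11:123062164-123062206, minus strand: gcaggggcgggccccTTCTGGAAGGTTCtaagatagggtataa
HSP90AA1, chr14:102087105-102087147, minus strand: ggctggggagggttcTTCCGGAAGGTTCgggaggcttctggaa
HSP90AB1, chr6:44247763-44247805, plus strand: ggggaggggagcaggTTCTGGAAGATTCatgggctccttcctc
HSP90AB1, chr6:44247816-44247858, plus strand: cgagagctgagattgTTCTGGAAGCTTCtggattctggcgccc
CHORDC1, chr11:90223072-90223124, minus strand: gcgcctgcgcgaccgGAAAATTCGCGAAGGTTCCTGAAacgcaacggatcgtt
DNAJA1, chr9:33025268-33025296, plus strand: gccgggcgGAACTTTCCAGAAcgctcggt
DNAJB6, chr7:157336858-157336900, plus strand: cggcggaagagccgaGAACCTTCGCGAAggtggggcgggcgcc
HSPD1, chr2:197500053-197500090, minus strand: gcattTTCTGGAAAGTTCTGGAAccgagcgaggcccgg
SERPINH1, chr11:75562162-75562204, plus strand: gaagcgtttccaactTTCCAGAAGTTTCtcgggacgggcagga

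The runs of capitals in CHORDC1 (23 bases) and HSPD1 (18 bases) are longer because overlapping matches follow each other there. The match in HSPA8 nearer to the start ends 43 bases before it, and that of HSP90AA1 ends 76 bases before a start site of that gene. The match in DNAJA1 begins at base 4 after the start. Of the 8 genes, HSPA8, HSP90AA1, HSP90AB1, CHORDC1, DNAJA1, DNAJB6 and HSPD1 fell and SERPINH1 rose, with a median log2 fold change of −0.66. Of all 52 tested members, 61.5% fell and 17.3% rose. Of the 51 other genes tested with such a promoter, 11 rose and 8 fell, with a median of 0.012. The shorter repeat of 2 units, GAANNTTC or TTCNNGAA, which every longer match contains, was found in 22 of 45 members (48.9%) and 16.2% of all genes with a promoter. HSPA1A, HSPA1B, DNAJB1 and HSPB1 were among these members. Of the 21 such members that were tested, 15 fell and 4 rose, with a median log2 fold change of −0.31. Of the 1506 other genes tested with this repeat, 449 fell and 423 rose, with a median of 5.66e-04. Some members had neither repeat in the promoters searched. Among these, PTGES3 (log2 fold change −1.095), HSPH1 (−0.96), HSPA4, PFDN4 and CCT5 fell, and DNAJB2, CDC37 and BAG3 rose. A match is a description of the letters and shows no binding. The search was chosen after the values were seen.

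All 8 genes of the CCT chaperonin fell, and by similar amounts. Their log2 fold changes lay between −0.52 and −0.31, and the median was −0.40. CCT6A (ENSG00000146731) was at 650 and 636 CPM in siControl and at 456 and 442 CPM in siNSUN2 (−0.52, SE 0.039, adjusted p = 4.80e-06). CCT5 was at 1022 and 1016 CPM against 730 and 704 CPM (−0.51, SE 0.040, adjusted p = 5.78e-06), and CCT4 was at 602 and 594 CPM against 443 and 415 CPM (−0.48, SE 0.044, adjusted p = 1.50e-05). CCT5 shares 30.1% of its exon positions with AC012640.4 on the other strand. In each of the 8 genes, both knockdown libraries lay below both controls. CCT8, CCT7, CCT3, TCP1 and CCT2 followed at −0.46, −0.34, −0.34, −0.32 and −0.31, with SEs between 0.038 and 0.049. Tested against a fold of 1.2, TCP1 and CCT2 did not pass.

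Each CCT ring holds 1 copy of each subunit. Levels of the subunit transcripts were set side by side per length. In the control libraries, CPM per kilobase of transcript ran from 220 for TCP1 to 380 for CCT8 in replicate 1 and from 216 for TCP1 to 356 for CCT8 in replicate 2. After knockdown the range was from 168 for CCT6A to 281 for CCT3 in replicate 1 and from 163 to 276 for the same genes in replicate 2. The highest level was 1.65 to 1.72 times the lowest in each of the 4 libraries, so the spread among subunits was alike while the summed level went from 2223 and 2178 to 1695 and 1619 CPM per kilobase. With GC and length taken off, 7 of the 8 stayed called, and CCT2 did not pass (−0.11, adjusted p = 0.0616). TCP1 was then at −0.12, while CCT3 and CCT7, the subunit genes with the highest GC content (51.2% and 51.8%), kept −0.35 and −0.37.

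Prefoldin genes did not move together. Of the 6, PFDN4, PFDN6 and VBP1 fell, PFDN2 rose, and PFDN1 and PFDN5 did not pass. PFDN4 (ENSG00000101132) was at 85.7 and 78.6 CPM in siControl and at 48.5 and 49.1 CPM in siNSUN2 (log2 fold change −0.75, SE 0.051, adjusted p = 2.30e-06; −0.45 with the correction). PFDN6 was at 49.3 and 48.7 CPM against 32.8 and 31.4 CPM (−0.61, SE 0.048, adjusted p = 5.78e-06), and its value with the correction was the same, −0.61. VBP1, the alpha-type subunit also called PFDN3, was at 164 and 160 CPM against 143 and 133 CPM (−0.23, SE 0.046, adjusted p = 0.00267), a call that the correction removed (0.055, adjusted p = 0.274).

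PFDN2 rose from 80.04 and 81.3 CPM to 98.0 and 92.9 CPM (log2 fold change 0.24, SE 0.044, adjusted p = 0.00125; 0.21 with the correction). PFDN1 lay at 130 and 128 CPM in the controls and at 131 and 126 CPM after knockdown, and PFDN5 at 133 and 122 CPM against 131 and 125 CPM. Their groups overlapped, with adjusted p = 0.949 and 0.971. On the length scale, PFDN5 was the highest subunit in every library, between 144 and 157 CPM per kilobase. PFDN4 and PFDN6 were the lowest, between 53.8 and 58.6 in the controls and between 33.2 and 37.1 after knockdown. The ratio of the highest to the lowest subunit was 2.81 and 2.69 in the controls and 4.64 and 4.38 after knockdown, which did not overlap. PFDN6 shares 32.2% of its exon positions with RGL2 and WDR46 on the other strand.

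**Figure D2:**
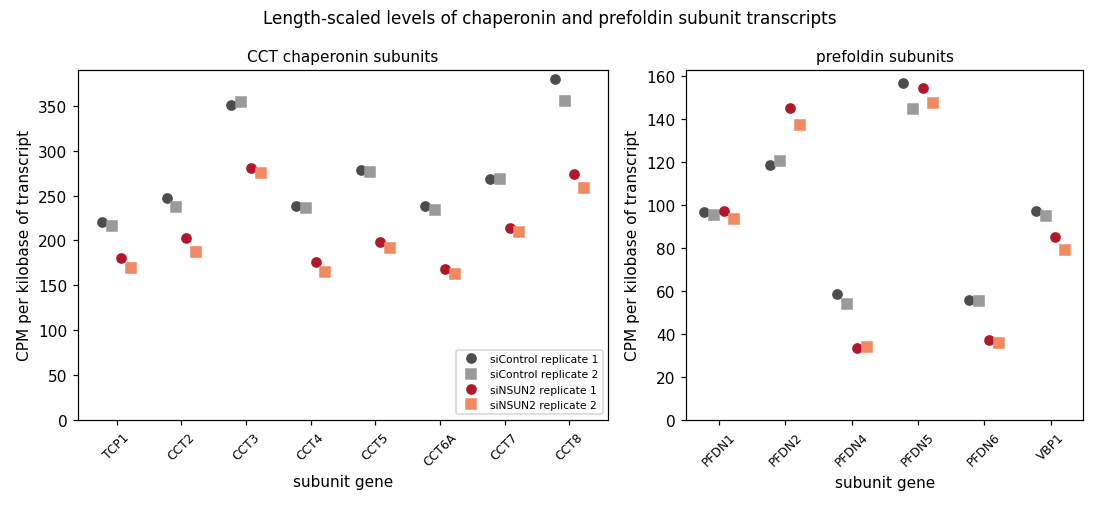
Level of each CCT (left) and prefoldin (right) subunit transcript in each library, in CPM per kilobase of transcript, on linear axes that start at 0. Every CCT subunit is lower in both siNSUN2 libraries. Among prefoldin subunits PFDN4, PFDN6 and VBP1 are lower, PFDN2 is higher, and the libraries overlap for PFDN1 and PFDN5.

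The fold changes of the members ran with the GC content of their transcripts, as did those of genes at large. Across the 52 tested members, which share the same 4 libraries and are not replicates, Spearman's rho between GC content and log2 fold change was 0.65, against 0.41 across 16286 tested genes. After the correction, rho across the members was still 0.40. Among the 26 members with the lower GC content (median 41.8%), 22 fell and DNAJB4 alone rose. Among the 26 with the higher GC content (median 52.9%), 10 fell and 8 rose. Shares among all genes of like GC content were not taken, so whether these counts differ from them is not shown. With GC and length taken off, the counts were 16 fallen and 2 risen in the first set and 10 fallen and 5 risen in the second. Of the 32 members that fell, 25 were called again with the correction, and BAG2, BAG4, BAG5, CCT2, DNAJC7, HSF2 and VBP1 were not. Of the 9 that rose, DNAJB2, DNAJB4, HSPB1, HSPB8, SERPINH1 and PFDN2 were called again, HSF1 and BAG3 were not, and CDC37 turned. The log2 fold change also ran with the level of the members, with a rho of −0.59 against average log2 CPM, beside −0.068 across all genes tested.

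**Figure D3:**
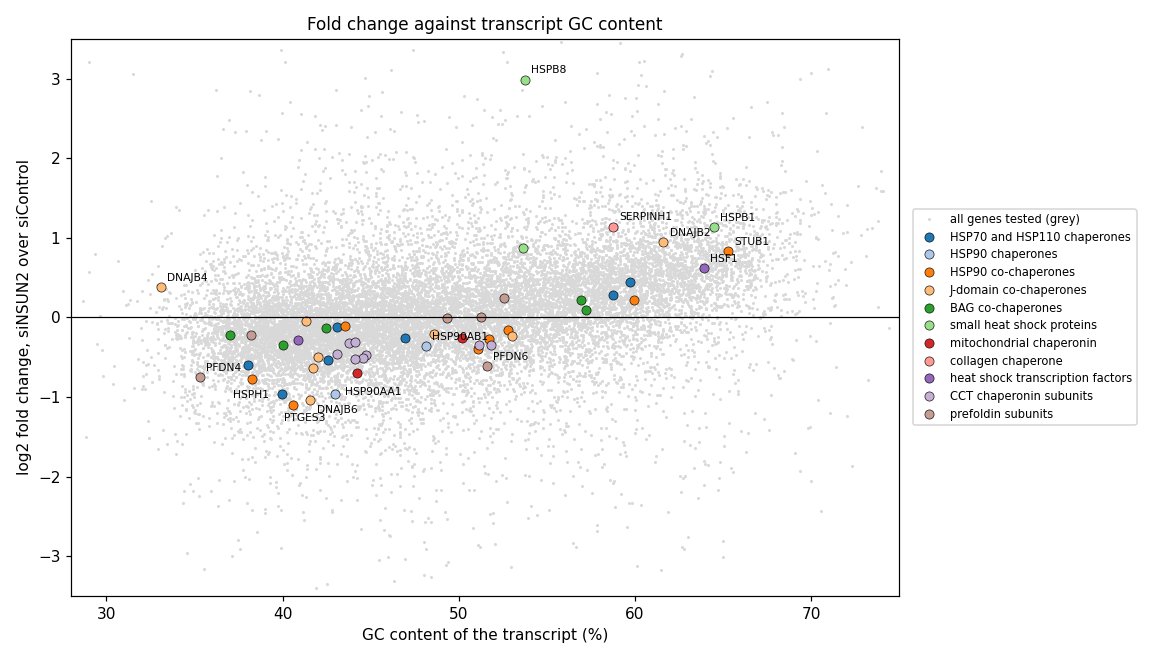
Log2 fold change (siNSUN2 over siControl) against the GC content of the transcript in percent, with members coloured by role over all genes tested in grey, and a few genes outside the axes left undrawn. Members with a GC content near 40%, such as PTGES3, HSPH1 and DNAJB6, lie lowest, and HSF1, HSPB1, DNAJB2 and STUB1, above 60%, lie above 0.

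**Figure D4:**
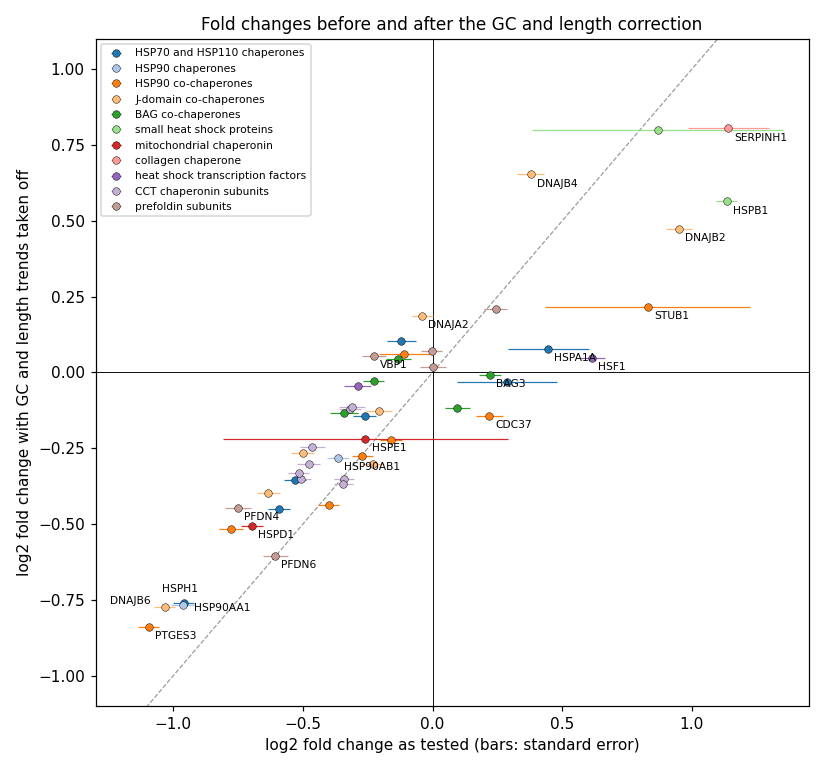
Log2 fold change of each tested member except HSPB8 as tested (horizontal, bars show the standard error) and after the GC and length correction (vertical), with the dashed line marking equal values. PTGES3, DNAJB6, HSP90AA1 and HSPH1 remain lowest on both axes, between −0.84 and −0.76 on the vertical one, whereas HSF1 and BAG3 move to near 0 and CDC37 below it.

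The 6-base word ACCCTA was searched in the longest annotated 3′ UTR of each gene. Of 12509 tested genes with such a UTR, 2894 hold it; 1292 of these fell and 669 rose, with a median of −0.16 on the log2 scale. Of the other 9615 genes, 2553 fell and 3541 rose, with a median of 0.091. A longer 3′ UTR is more likely to hold any given word, and these sets were not matched for UTR length or GC content. The part of the word itself in the difference was not tested. Among the 52 tested members, 10 hold it (19.2%, against 23.1% of the genes searched). HSPH1, DNAJB6, HSPA4L, FKBP4, CCT3, CCT6A and PFDN6 of these fell, HSPB8 rose, and BAG1 and CRYAB did not pass, with a median of −0.46. The 42 members without it had a median of −0.23, with 25 fallen and 8 risen. HSP90AA1, PTGES3 and CHORDC1 fell without the word in their 3′ UTR. The longest 3′ UTR can belong to another transcript than the one used for length and GC content. In DNAJB6, PFDN6 and BAG1 it was 6839, 1521 and 2748 bases long, longer than the whole of that transcript (1609, 884 and 1038 bases).

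A further 50 genes of the same machinery, other cofactors, J-domain genes and tubulin-folding factors, were listed to set the members beside. HSPB11 and TBCE matched no row, and HSPA12B, HSPB6, HSPB7 and HSF5 did not pass the filter. Of the 44 that were tested, 18 rose, 17 fell and 9 did not pass, and their median log2 fold change was 0.019. Thus 40.9% rose and 38.6% fell, where 27.1% and 25.5% of all genes tested did so. The share called in either direction was 79.5%, against 78.8% of the members and 52.6% of all genes tested. The summed level of these further genes was 4706 and 4746 CPM in the controls and 4867 and 4658 CPM after knockdown, which overlap. The largest called rise was that of HSPA6, a strictly stress-inducible HSP70, which was scarce, with 16 and 39 counts in the controls (0.377 and 0.183 CPM) and 88 and 58 counts after knockdown (0.958 and 1.69 CPM; log2 fold change 2.33, SE 0.48, adjusted p = 0.00307). DNAJB5 followed, at 6.97 and 7.52 CPM against 14.8 and 15.2 CPM (1.05), and then FKBP8, an immunophilin of the mitochondrial surface, at 93.7 and 93.4 CPM against 159 and 148 CPM (0.71, but 0.026 with GC and length taken off). The largest called falls were those of PDCL3, a CCT cofactor, at 39.0 and 39.9 CPM against 19.8 and 19.7 CPM (−0.996), of DNAJC21, which acts in the maturation of ribosomal subunits, at 100.5 and 104 CPM against 66.9 and 63.8 CPM (−0.65), and of TRAP1, the mitochondrial HSP90, at 138 and 140 CPM against 98.3 and 95.3 CPM (−0.52, and −0.81 with the correction).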

How the data were processed

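The authors deposited raw counts per Ensembl gene for the 4 libraries. The tools named are HISAT2 and HTSeq, with build hg19, per the submitters' processing notes. Versions, annotation and strand setting: not given in the sources used here. Libraries were stranded, from poly(A) RNA, and read as pairs, per the labels' protocols. Groups and replicate numbers came from the titles.

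From the deposited counts, edgeR 4.0.16 (R 4.3.3; quasi-likelihood F-test, robust, TMM factors, filterByExpr, no block, two-sided, Benjamini-Hochberg) tested 16889 of 62893 genes. CPM use TMM-scaled library sizes, fold changes (log2) set siNSUN2 over siControl, and standard errors come from the F statistic. Chi-square tests on the counts of each group gave 20.5 and 13.5 per degree of freedom, so replicates were not one library deposited again. The test was checked on simulated counts in which 200 genes were changed. It recovered 14.5% of changes of 1.5-fold, 75.4% of 2-fold and 98.5% of 4-fold, and 1.55% of its calls were false. The simulated spread was the same for all genes, unlike that of the real counts, so these shares do not carry over to the members. Symbols, transcript length, GC content, exon overlaps and 3′ UTRs came through gene IDs from GENCODE 29 (GRCh38); length is that of the principal or else the longest transcript. The correction takes loess trends (span 0.3) on GC content and length off each library, and GC content was known for 96.4% of genes tested. Promoters are RefSeq's. The members, lists and alternatives were chosen with earlier results of these data known. Genes with full values are, per role, up to 3 called members with the smallest p in each direction, plus both HSF, HSP90 and HSPA1 pairs, and of the further 50 genes the 3 largest rises and falls; others were named after their values were seen. Alternatives were DESeq2 1.42.0, limma-voom 3.58.1, other scaling, filters and thresholds, thinning, the block, and each library left out.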

Additional observations from a re-analysis of the deposited data

How the results depend on the processing

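Depth limits HSPB8, CRYAB and DNAJA4, whose levels rest on few counts. Tested against a fold of 1.2, 20 members were lower, all among the 32, and 6 higher. The falls lost were those of AHSA1, BAG2, BAG4, BAG5, CCT2, DNAJB1, DNAJC7, HSF2, HSPA8, STIP1, TCP1 and VBP1. The rises lost were those of BAG3, CDC37 and PFDN2. Over all genes 2913 rose and 2529 fell in that test, and of the further genes 11 rose and 6 fell. The other counts of calls stayed within 1.5 times of those reported. Leaving out 1 library at a time left 31 to 33 members lower and 7 to 9 higher. The replicate number as a block gave 33 lower and 11 higher, adding HSPA14 as a fall and HSPA1A and HSPA1B as rises and losing no call; replicate deviations of the groups correlated at 0.18 over 11635 genes, with only 2 pairs, so the numbers are not taken as pairs. BAG5 lost its call with DESeq2, limma-voom, non-robust edgeR, no filter, thinning and without siControl replicate 2 or siNSUN2 replicate 2. HSPA1A was called as a rise with DESeq2, limma-voom, non-robust edgeR, no filter and the block. A fit with 1 library left out holds no spread within that library's group, so calls gained in such a fit are not read. HSPA14 was also called as a fall with RLE factors and thinning. BAG3 was not called without siControl replicate 1, which moved all genes by a median of −0.067. Taking GC content and length off moved all genes by a median of 0.045. With it, the sign turned for CDC37 (−0.14), HSPA1B (−0.031), HSPA14 (0.10), FKBP5 (0.061), DNAJA2 (0.19), BAG1 (−0.12), BAG3 (−0.0074), BAG5 (0.046), PFDN1 (0.071) and VBP1 (0.055). Signs near 0 also turned for PFDN1 with limma-voom (3.11e-05), library totals (0.0097) and no filter (0.015), and for PFDN5 with DESeq2 (−0.014), RLE factors (−0.016), upper-quartile factors (−0.0081) and the 5 CPM filter (−8.28e-04). With 1 library left out, values ran from −0.0072 to 0.12 for BAG1, −0.23 to 0.0017 for FKBP5, −0.80 to 0.14 for HSPE1, −0.060 to 0.033 for PFDN1 and −0.073 to 0.046 for PFDN5. The causes were not tested.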
